A study of Mus musculus with 70 samples.

Results

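The 8 Smad genes of the mouse (Smad1, Smad2, Smad3, Smad4, Smad5, Smad6, Smad7 and Smad9) were followed by RNA-seq in the dorsal hippocampus across patterns of voluntary wheel running. They were taken from the table of expression values by their symbols, and all 8 were among the 24346 genes listed. The tissue came from adult male C57BL/6J mice, housed singly, with 70 libraries in 7 groups of 10. Sedentary mice (0-0-0) never had a wheel. The exercise groups are named by days of initial running, days of sedentary delay and days of reactivating running. They were 0-0-2, with a short run alone, 14-0-0, with the longer run alone, 14-7-0 and 14-14-0, in which the longer run was followed by a delay, and 14-7-2, in which a short run followed that delay. Wheels were taken away on the night before training, and these 6 groups were all given a 3 min session of object location memory (OLM) training 1 h before the tissue was taken. Home cage mice (also 0-0-0) had neither a wheel nor the training. Each group was harvested on 2 days, called cohorts 1 and 2 in the labels, with 5 libraries on each. RNA of the whole dorsal hippocampus was measured, so a gene's value is a sum over all of its cell types.

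Smad proteins carry signals of the TGF-beta superfamily from the cell surface to the nucleus. Activin, TGF-beta and nodal receptors, among them the type I receptor ACVR1C that the study was concerned with, phosphorylate SMAD2 and SMAD3, while bone morphogenetic protein (BMP) receptors phosphorylate SMAD1, SMAD5 and SMAD9. Both sets then bind the common partner SMAD4 and enter the nucleus, and the inhibitory SMAD6 and SMAD7 oppose them and are themselves induced by the pathway. SMAD signals are switched by phosphorylation and by entry into the nucleus, neither of which an RNA measurement shows. The comparisons below ask whether the supply of Smad messenger RNA differed with running, rest, reactivation or training.

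Sequences that Smad complexes are known to bind were looked for in the gene promoters, because Smad6 and Smad7 are textbook targets of their own pathway. The motifs searched were the palindromic Smad box, GTCTAGAC, and the GC-rich Smad box bound by BMP-activated Smads, GGCGCC, each of which reads the same on both strands. RefSeq windows from 250 bases before to 50 bases after an annotated start (GRCm38.p6, the same assembly as mm10) were at hand for 5 of the 8 genes, in 7 windows. The stretches of 30 bases that held a motif are shown because they differ between the inhibitory Smad6 and the BMP-side Smad5 and Smad9, with the motif in capitals.
Smad6 promoter, chr9:64022045-64022074, minus strand: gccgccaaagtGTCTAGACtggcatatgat
Smad9 promoter, chr3:54755519-54755548, plus strand: gcacggccgcctGGCGCCcttccagcgcgg
Smad5 promoter, chr13:56703021-56703050, plus strand: ccccggcgagcgGGCGCCgagcgcttgtcc
In Smad6 the palindrome ran from base -4 to base 4 around the start used for its window, across the first bases of that annotated transcript. Bases are counted from the start of each window, which need not be the end of the gene span. Each stretch printed lies within the gene span given in the next paragraph. It was present in 70 of all 32851 windows (0.213%). The GC-rich box lay at bases -51 to -46 of Smad9. In Smad5 it lay at bases 24 to 29 of one annotated transcript and at bases -19 to -14 of another, and the third Smad5 window did not hold it. It was present in 11.9% of all windows. The windows of the 5 genes held between 63% and 73.7% G and C, against a median of 52.7% over all windows. Neither motif was in the windows of Smad1 or Smad3. A match of letters is a description of the sequence and not a measured binding site.

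In these libraries Smad3 and the common partner Smad4 were the most abundant members of the family, and the inhibitory Smad6 was the least. Levels are given as FPKM, fragments per kilobase of transcript scaled to the mapped total of a library, which allows genes to be set against each other per unit of length. Smad3 (chr9:63646766-63757994) and Smad6 (chr9:63953076-64022085) lie on the minus strand of the same chromosome. Smad1 is at chr8:79338395-79399428 on the minus strand, Smad5 at chr13:56703010-56742378 and Smad9 at chr3:54755455-54801662, both on the plus strand. Smad2, Smad4 and Smad7 are on chromosome 18.

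Over all 70 libraries the activin and TGF-beta side was carried by Smad3, at 19.97 ± 3.61 FPKM (SD, n = 70), with Smad2 at 4.46 ± 0.400 FPKM (n = 70). Smad3 exceeded Smad2 in 70 of 70 libraries, with a median ratio of 4.61. On the BMP side Smad5 was at 7.996 ± 0.791 FPKM and Smad1 at 7.49 ± 0.755 FPKM (n = 70 each). Their order was not fixed, since Smad5 was the higher of the pair in 52 of 70 libraries. Smad9, the third BMP-side member, stood at 2.47 ± 0.291 FPKM (n = 70) and was below Smad2 in all 70 libraries. Smad4 was at 16.0 ± 1.37 FPKM (n = 70), below Smad3 in 64 of 70 libraries and above Smad5 in all 70. Of the inhibitory members, Smad7 was at 5.24 ± 0.786 FPKM and Smad6 at 0.411 ± 0.230 FPKM (n = 70 each). Smad7 exceeded Smad2 in 60 of 70 libraries, and Smad6 was the lowest member in 70 of 70.

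Expressed as shares of the summed FPKM of the family, Smad2 and Smad3 together made up 38.0% ± 3.35, the BMP-side Smad1, Smad5 and Smad9 28.1% ± 1.82, Smad4 25.0% ± 1.55, and Smad6 and Smad7 together 8.88% ± 1.55 (SD, n = 70). The 7 group means of the first share ran from 36.7% in sedentary to 39.1% in home cage. Without sedentary replicate 6, in which this share was the lowest of all libraries at 23.6%, the sedentary mean was 38.1% (n = 9), and 37.1% in 14-14-0 was then the lowest. The group means of the last share ran from 8.25% in 14-0-0 to 9.60% in 14-14-0.

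**Figure D1:**
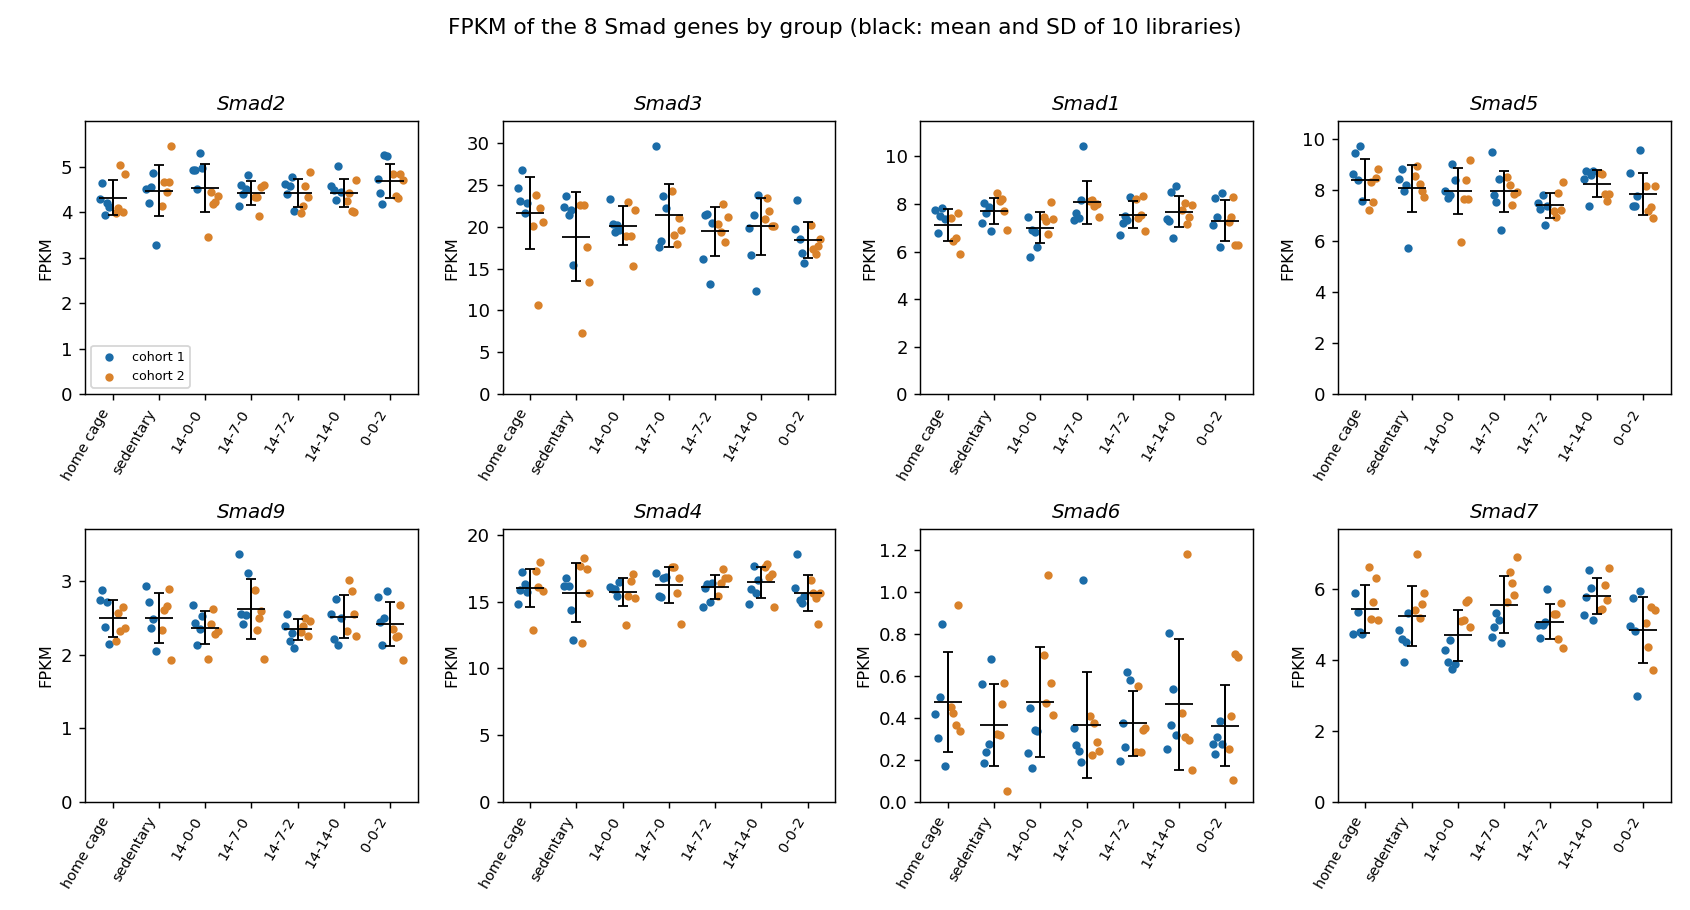
FPKM (y axis, from 0) of each Smad gene in the 7 groups (x axis), 1 point per library, blue for harvest cohort 1 and orange for cohort 2, with the mean and SD of 10 libraries in black. The ranges of the 7 groups overlap for every gene, and single libraries stand low for Smad3 (7.34 in sedentary, 10.7 in home cage) and high for Smad1 (10.4 in 14-7-0).

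The plot of levels by group shows ranges that overlapped in all 8 genes. The highest group mean exceeded the lowest by a ratio of 1.05 for Smad4, 1.09 for Smad2, 1.12 for Smad9, 1.14 for Smad5, 1.15 for Smad1, 1.17 for Smad3, 1.24 for Smad7 and 1.31 for Smad6. When the 7 group means of a gene were put in order, each of the 6 gaps between neighbours was smaller than 1 SD of the libraries, for all 8 genes, although this SD of single libraries is wider than the error of a group mean. The orders also differed from gene to gene. Smad7 ran from 14-14-0 (5.80 ± 0.510 FPKM) through 14-7-0, home cage, sedentary, 14-7-2 and 0-0-2 to 14-0-0 (4.70 ± 0.718 FPKM, n = 10 each). Smad1 ran from 14-7-0 (8.07 ± 0.893 FPKM) through sedentary, 14-14-0, 14-7-2, 0-0-2 and home cage to 14-0-0 (7.01 ± 0.666 FPKM, n = 10 each). Smad3 was highest in home cage (21.6 ± 4.30 FPKM) and lowest in 0-0-2 (18.4 ± 2.15 FPKM), and Smad4 ran from 16.5 ± 1.16 FPKM in 14-14-0 to 15.7 ± 1.34 FPKM in 0-0-2 (n = 10 each). Smad2 ran from 4.69 ± 0.372 FPKM in 0-0-2 to 4.31 ± 0.385 FPKM in home cage (n = 10 each). Smad5 was highest in home cage (8.42 ± 0.817 FPKM) and lowest in 14-7-2 (7.41 ± 0.487 FPKM), and Smad9 ran from 2.62 ± 0.406 FPKM in 14-7-0 to 2.34 ± 0.146 FPKM in 14-7-2 (n = 10 each).

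Most members varied little between mice. The SD of log2(FPKM + 0.1) within a group and cohort was 0.12 for Smad2, 0.13 for Smad1, 0.14 for Smad4 and Smad5, 0.16 for Smad9 and 0.17 for Smad7, against a median of 0.22 over the 12994 genes that were tested. Smad3 was more variable, at 0.30, a spread wider than that of 70.8% of tested genes. Smad6 had an SD of 0.61 at a mean below 1 FPKM, the minimum set for the tests. So 7 of the 8 members were tested for differences between groups. Smad6 is described by its values, by correlations and, in the last section, by fits with no minimum level. Its 70 values ran from 0.0531 to 1.18 FPKM, with a median of 0.345 FPKM, and its group means ran from 0.363 FPKM in 0-0-2 to 0.475 FPKM in home cage.

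A pair of libraries stood apart from the rest and bears on these genes. Sedentary replicate 6 had a summed level of 113 FPKM for the 12 markers of hippocampal pyramidal and granule neurons. The libraries other than it and 14-7-0 replicate 4 held 745 to 1365 FPKM. Its oligodendrocyte markers were above those of all other sedentary libraries. So were its thalamus markers but for Lef1, which was 1.22 FPKM against at least 1.29 FPKM. Of the inhibitory neuron markers, Gad1, Gad2 and Slc32a1 were above all other sedentary libraries, Pvalb and Vip were below them, and Sst was within their range. In that library Smad3 was 7.34 FPKM and Smad4 11.9 FPKM, the lowest of all 70 libraries, while Smad7 was 7.01 FPKM, the highest of 70. The other 9 sedentary libraries held Smad3 at 13.5 to 23.6 FPKM, Smad4 at 12.2 to 18.3 FPKM and Smad7 at 3.96 to 5.89 FPKM. The second library, 14-7-0 replicate 4, had a relative depth of 0.0361 against 0.346 to 1.48 in the others, and 10279 genes were listed at 0. Its Smad1, 10.4 FPKM, was the highest of 70, where the other 9 libraries of its group held 7.34 to 8.19 FPKM, and its Smad6 was 1.05 FPKM against 0.188 to 0.409 FPKM. Values without one or both of these libraries are given below for Smad1, Smad3, Smad4, Smad5 and Smad7.

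The first question was whether any Smad gene differed from sedentary after training alone or after a running schedule. Of 7 members tested in 6 comparisons, 1 of the 42 tests passed an unadjusted p under 0.05, the limit the study itself used, and none passed after adjustment over all genes in limma. The single call was Smad1, lower in 14-0-0. Over all genes tested, the share called was 4.4% across the 6 comparisons together, so that the count of members called did not exceed the background. All 6 comparisons share the 10 sedentary libraries, and p-values measure the spread between libraries of a group. In bulk tissue, fewer cells of a type and less RNA per cell cannot be told apart.

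Smad1, which transmits BMP signals, ran from 5.79 to 8.07 FPKM in 14-0-0 with a median of 7.11 FPKM, and from 6.88 to 8.44 FPKM in sedentary with a median of 7.79 FPKM. The ranges overlapped, with 9 of 10 libraries of 14-0-0 below the sedentary median and 4 of them below every sedentary library. The difference was -0.14 ± 0.060 on the log2 scale (SE; limma, p = 0.0337, adjusted p = 0.494), in a comparison where 9.15% of all genes were called and 3.04% were called lower. Without sedentary replicate 6 it was -0.13 with p = 0.0501. With all libraries kept, it was -0.18 within cohort 1 (limma, p = 0.0655) and -0.092 within cohort 2 (p = 0.305), which holds sedentary replicate 6. The 14-0-0 group also differed from sedentary in its choroid plexus markers (10 genes, among them Ttr and Folr1), whose summed level ran from 37.1 to 16195 FPKM with a median of 2316 FPKM in 14-0-0 and from 24.7 to 374 FPKM with a median of 88.2 FPKM in sedentary. With the score of these markers in the model the Smad1 difference was -0.11 with p = 0.186, and no Smad gene was called in any of the 6 comparisons.

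**Figure D2:**
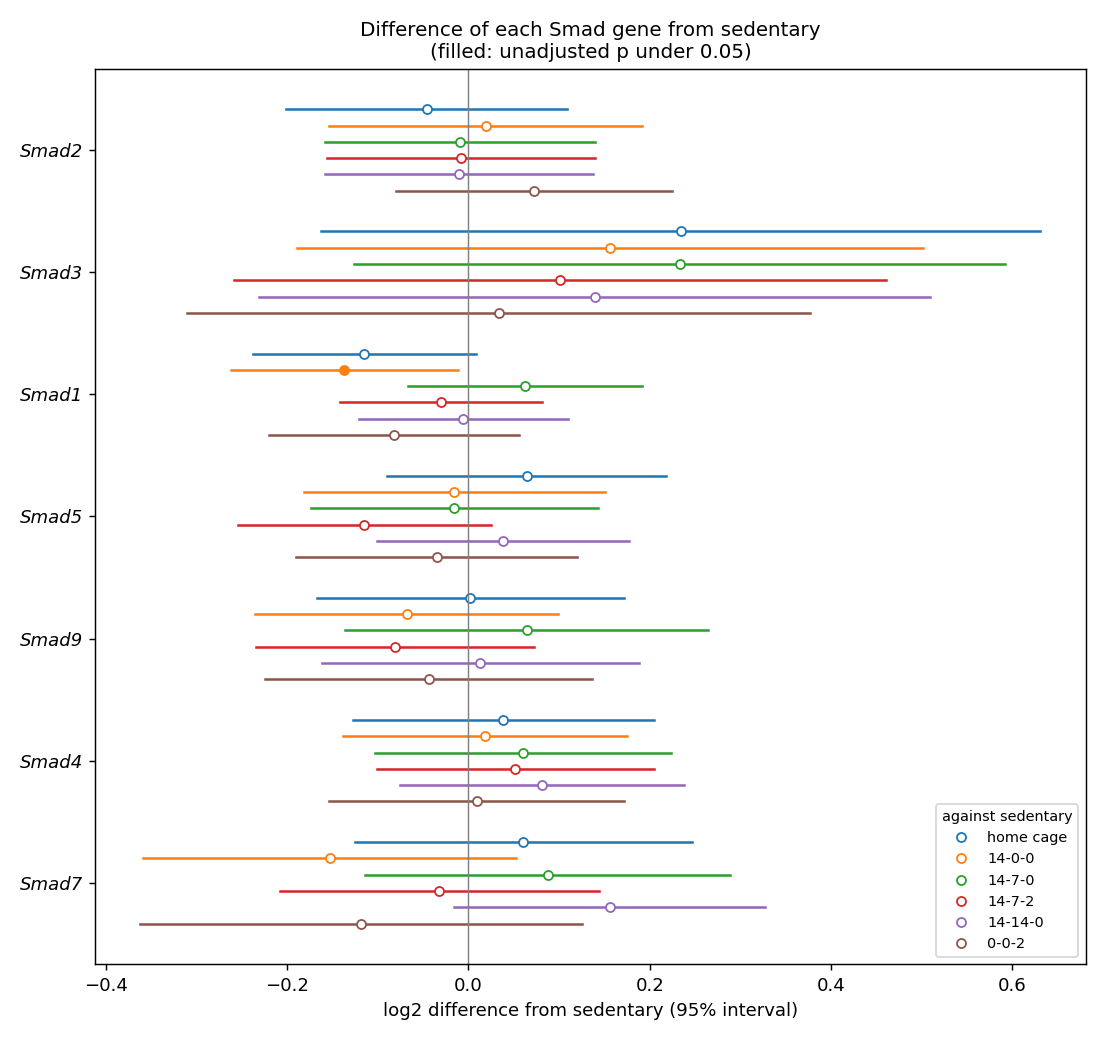
Difference of 7 Smad genes from sedentary on the log2(FPKM + 0.1) scale (x axis) in the 6 comparisons (colours), with 95% intervals from limma, where filled points passed an unadjusted p under 0.05. The single filled point is Smad1 in 14-0-0, and the intervals of Smad3 are the widest, reaching 0.63.

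For the other members the plot of differences from sedentary shows intervals that include 0. In the home cage comparison, which asks about the OLM training, 0 of 7 members were called where 2.3% of all genes were, and the differences ran from -0.11 (Smad1, p = 0.0656) to 0.23 (Smad3, p = 0.232). In 14-7-0 again 0 of 7 were called, against 3.26% of all genes, with differences from -0.016 to 0.23. In 14-7-2, the schedule with reactivating exercise, 0 of 7 were called against 4.39% of all genes. The smallest p there was that of Smad5, at a difference of -0.11 (limma, p = 0.103). In 0-0-2, 0 of 7 were called against 2.37% of all genes. In 14-14-0, 0 of 7 were called against 4.95% of all genes, and Smad7 had the smallest p, at 0.16 ± 0.082 (SE; limma, p = 0.0727).

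Smad7, the inhibitory member that blocks the type I receptors, was sensitive to the atypical sedentary library in which it was highest. Its 14-14-0 libraries ran from 5.13 to 6.60 FPKM with a median of 5.74 FPKM. The sedentary libraries ran from 3.96 to 7.01 FPKM with a median of 5.27 FPKM, and without replicate 6 the highest of them was 5.89 FPKM. Without that library the difference was 0.20 (limma, p = 0.0104, adjusted p = 0.683), so that Smad7 in 14-14-0 took the place of Smad1 in 14-0-0 as the single member called. The single-cohort fits put replicate 6 back, among the sedentary libraries of cohort 2. They gave a difference of 0.30 for cohort 1 (limma, p = 0.0176) and 0.012 for cohort 2 (p = 0.907). How far the gap between these values rests on replicate 6 was not tested. In 14-0-0 the difference of Smad7 from sedentary was -0.15 (limma, p = 0.137), and with the harvest cohort as a covariate it was called at p = 0.0289. Both fits kept sedentary replicate 6. The sedentary mean of Smad7 was 5.24 ± 0.844 FPKM with that library (SD, n = 10) and 5.04 ± 0.606 FPKM without it (n = 9). In 14-0-0 it was 4.70 ± 0.718 FPKM (n = 10).

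Smad2, Smad3 and Smad4, the members that act below activin and TGF-beta receptors, were called in none of the 6 comparisons, and their intervals bound the differences that remain possible. For Smad2 the 95% intervals of the log2 difference all lay between -0.20 and 0.22, and for Smad4 between -0.15 and 0.24. Without sedentary replicate 6 the Smad4 differences ran from -0.033 in 0-0-2 to 0.040 in 14-14-0. Those of Smad3 lay between -0.31 and 0.63, and its 6 differences were all above 0, from 0.033 to 0.23. Since Smad3 was lowest of all in sedentary replicate 6, these were recomputed without that library, when they ran from -0.11 in 0-0-2 to 0.093 in home cage. The sedentary mean of Smad3 was 18.8 ± 5.31 FPKM with the library (SD, n = 10) and 20.1 ± 3.66 FPKM without it (n = 9). The intervals of Smad5 lay between -0.25 and 0.22, and those of Smad9 between -0.24 and 0.26. In the groups of special interest to the study, 14-0-0 and 14-7-2, Smad3 was 20.1 ± 2.32 and 19.4 ± 2.89 FPKM and Smad4 15.8 ± 1.05 and 16.1 ± 0.886 FPKM (SD, n = 10 each).

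The exercise groups were then set against each other, to ask what a sedentary delay, a longer delay, reactivating exercise or the initial running changed. Of 35 tests of members, 2 passed the unadjusted limit and none passed after adjustment, where 4.29% of all tests over genes passed the unadjusted limit. Both calls were in 14-7-0 against 14-0-0, the comparison of 14 days of running with and without a delay of 7 days. There 2 of 7 members were called, both higher after the delay, and 5.63% of all genes tested were called, with 2.03% of all genes tested called higher.

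In that comparison Smad1 ran from 7.34 to 10.4 FPKM in 14-7-0 with a median of 7.97 FPKM, and from 5.79 to 8.07 FPKM in 14-0-0 with a median of 7.11 FPKM. All 10 libraries of 14-7-0 lay above the median of 14-0-0, and 4 lay above every library of it. The difference was 0.20 ± 0.067 on the log2 scale (SE; limma, p = 0.00724, adjusted p = 0.721). It was 0.16 without the shallow 14-7-0 replicate 4 (p = 0.0104), 0.29 within cohort 1 (p = 0.031) and 0.10 within cohort 2 (p = 0.151). The choroid plexus markers moved in the opposite direction, with a median summed level of 85.8 FPKM in 14-7-0 (range 29.8 to 2158 FPKM) against the 2316 FPKM of 14-0-0. With their score in the model the Smad1 difference was 0.14 (limma, p = 0.0957).

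Smad7 ran from 4.48 to 6.91 FPKM in 14-7-0 with a median of 5.50 FPKM, and from 3.74 to 5.71 FPKM in 14-0-0 with a median of 4.76 FPKM. The ranges overlapped, with 8 of 10 libraries of 14-7-0 above the median of 14-0-0 and 4 above all of its libraries. The difference was 0.24 ± 0.095 (SE; limma, p = 0.0195, adjusted p = 0.73). This one was as large within each harvest cohort, at 0.26 in cohort 1 (p = 0.0211) and 0.22 in cohort 2 (p = 0.0197), and with the choroid plexus score in the model, at 0.29 (p = 0.019). With the harvest cohort as a covariate it was 0.24 at p = 0.000305 (adjusted p = 0.314), and without 14-7-0 replicate 4 it was 0.27 (p = 0.0083).

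The remaining 4 direct comparisons called no Smad gene with all libraries. They were 14-14-0 against 14-7-0, for the longer delay (6.44% of all genes called), 14-7-2 against 14-7-0, for reactivation (5.39%), 14-7-2 against 0-0-2, for the effect of earlier running (2.43%), and 14-0-0 against 0-0-2, for the length of running (1.56%). In the reactivation comparison 6 of 7 members had a lower mean log2 value in 14-7-2, of which the smallest p was that of Smad9, at -0.15 (limma, p = 0.0805). Without the shallow library Smad5 was called there, at -0.13 ± 0.051 (SE; p = 0.0177, adjusted p = 0.643). Within cohort 2 Smad7 was called there, at -0.30 (limma, p = 0.00932), where within cohort 1 it was 0.063 (p = 0.513). Over these 5 comparisons the 95% intervals of Smad2 lay between -0.20 and 0.11, those of Smad4 between -0.11 and 0.15, and those of Smad3 between -0.34 and 0.28 on the log2 scale.

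A test over all 7 groups at once named the same pair of genes. Of 7 members, 2 were called, Smad7 (F = 2.95, limma, p = 0.0131, adjusted p = 0.465) and Smad1 (F = 2.72, p = 0.0201, adjusted p = 0.503), where 7.63% of all genes were called. For Smad2, Smad3, Smad4, Smad5 and Smad9 the p-values of this test lay between 0.163 and 0.812. Smad1 was no longer called with the choroid plexus score in the model (p = 0.0585) or without the 2 libraries that stood apart (p = 0.0567), while Smad7 was called under both.

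Smad7 also differed between the days of harvest. It was higher in cohort 2, with a median of 5.50 FPKM (range 3.73 to 7.01) against 4.92 FPKM (range 2.98 to 6.53) in cohort 1, and 31 of the 35 libraries of cohort 2 lay above the median of cohort 1. With the group as a covariate the difference was 0.17 ± 0.045 on the log2 scale (SE; limma, p = 0.000319, adjusted p = 0.0538), and it was 0.15 without both libraries that stood apart (p = 0.00101). Over the alternatives run, the adjusted p fell on either side of 0.05, from 0.0429 to 0.0773. Smad7 was the single member called, 1 of 7, where 11.9% of all genes were called and 3.58% were called higher in cohort 2. For the other 6 tested members the difference between cohorts ran from -0.089 (Smad3, p = 0.219) to 0.013 (Smad4, p = 0.676). The cohorts were harvested on separate days, and what else differed between the days is not known from the labels.

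**Figure D3:**
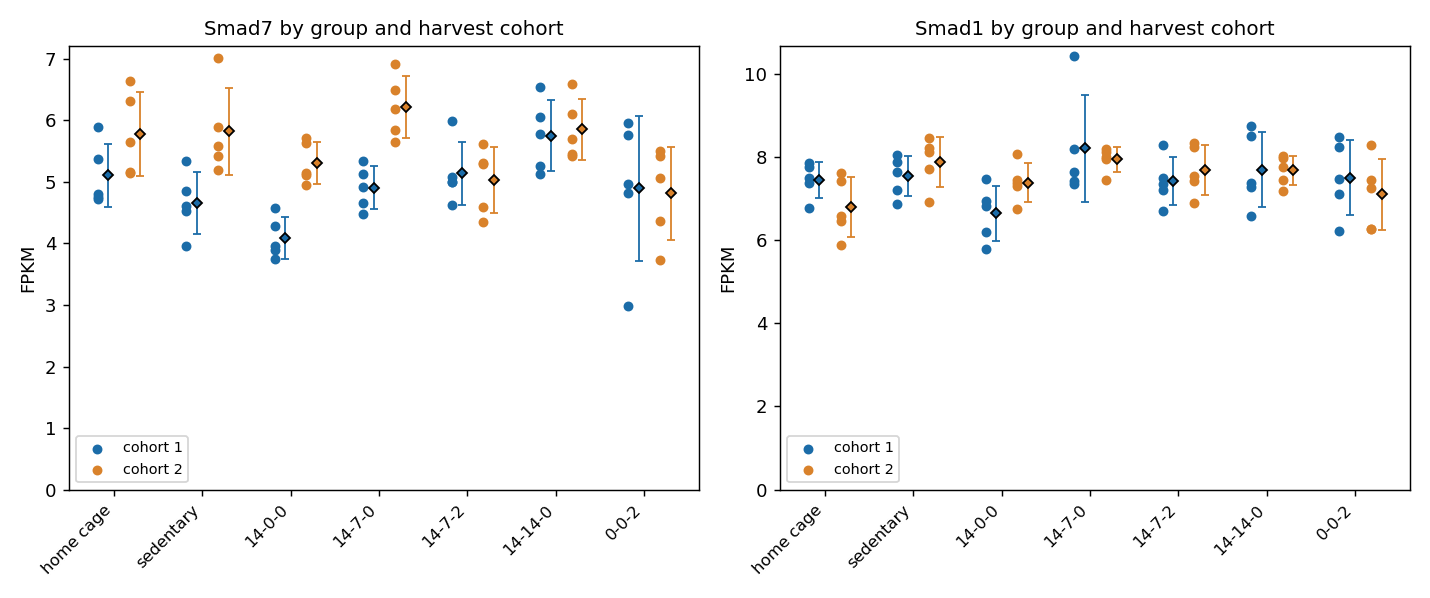
FPKM (y axis, from 0) of Smad7 and Smad1 by group (x axis) and harvest cohort (blue cohort 1, orange cohort 2), 1 point per library, with diamonds and bars for the mean and SD of 5 libraries. In Smad7 the cohort 2 mean is the higher in home cage, sedentary, 14-0-0 and 14-7-0, whereas the means are close in 14-7-2, 14-14-0 and 0-0-2.

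The plot by cohort shows that the difference in Smad7 was uneven over the groups. In 14-0-0 the cohort 1 libraries held 4.28, 3.95, 4.57, 3.74 and 3.89 FPKM and the cohort 2 libraries 5.11, 5.14, 5.63, 5.71 and 4.95 FPKM, so the cohorts did not overlap. In 14-7-0 they held 4.65, 4.92, 5.34, 5.13 and 4.48 FPKM against 5.66, 6.49, 6.19, 5.84 and 6.91 FPKM, again without overlap. The share of all genes whose cohorts did not overlap within a group was not counted. The sedentary means were 4.66 ± 0.503 and 5.82 ± 0.711 FPKM and the home cage means 5.11 ± 0.509 and 5.78 ± 0.680 FPKM in cohorts 1 and 2 (SD, n = 5 each). The cohorts were close in 14-7-2 (5.14 ± 0.512 and 5.03 ± 0.536 FPKM), in 14-14-0 (5.75 ± 0.576 and 5.85 ± 0.497 FPKM) and in 0-0-2 (4.90 ± 1.18 and 4.81 ± 0.754 FPKM). In 5 of 7 groups the mean was higher in cohort 2. Tests of whether a difference between groups itself differed between the cohorts passed the unadjusted limit in 4 of 77 cases for the members. Of these, 3 were in Smad7, in comparisons that share libraries, with all libraries kept. The limit was passed in 2.67% of cases over all genes, and none of the members passed after adjustment in limma.

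The rest of the pathway was read through 6 lists of 96 genes in all, of which 74 reached the minimum level. The share of them called against sedentary was 10.8% (8 genes) in home cage, 12.2% (9 genes) in 14-0-0, 2.7% (2 genes) in 14-7-0, 6.76% (5 genes) in 14-7-2, 9.46% (7 genes) in 14-14-0 and 0% in 0-0-2, by the unadjusted limit, against the shares of all genes given above for the same comparisons. None passed after adjustment. In home cage 6 of the 8 were higher, in 14-0-0 6 of 9, in 14-7-2 3 of 5 and in 14-14-0 7 of 7, while both genes called in 14-7-0 were lower. The lists were chosen with earlier results of these data known. An excess of their calls over the share of all genes is therefore not independent support. The values of these lists are from fits with all libraries. They were not refitted without sedentary replicate 6, so their dependence on that library was not tested.

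Among the ligands, of which 12 of 21 were tested, Inhbb moved in the same direction in 3 running groups. Inhbb, the activin beta-B subunit whose dimers signal to SMAD2 and SMAD3, was 1.76 ± 0.425 FPKM in sedentary and lower in 14-0-0 (1.18 ± 0.167 FPKM, difference -0.52, limma, p = 0.000413, adjusted p = 0.279), 14-7-0 (1.15 ± 0.393 FPKM, -0.63, p = 0.0065) and 14-7-2 (1.25 ± 0.391 FPKM, -0.49, p = 0.00931; SD, n = 10 each). These comparisons share the sedentary libraries. Bmp4, a BMP ligand, was higher in home cage by 0.35 (p = 0.0242) and lower in 14-7-2 (difference -0.28, p = 0.0438). Bmp6, another, was higher in home cage by 0.57 (p = 0.0297), in 14-0-0 by 0.77 (p = 0.0253) and in 14-14-0 by 0.91 (p = 0.0146).

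Of the receptors 12 of 14 were tested, and none was called lower than in sedentary. Acvr1c, the type I receptor, was higher in 14-0-0 by 0.54 (limma, p = 0.00988, adjusted p = 0.366) and in 14-7-2 by 0.55 (p = 0.00735, adjusted p = 0.847). Tgfbr2, the type II TGF-beta receptor, was higher in home cage by 0.26 (p = 0.00151), in 14-0-0 by 0.21 (p = 0.0261) and in 14-14-0 by 0.36 (p = 0.00209). The summed choroid plexus markers ran up to 15697 FPKM in home cage and 21991 FPKM in 14-14-0, beside the 374 FPKM that was the highest in sedentary. The mean score of the markers of meninges and fibroblasts was highest in the same 3 groups as the choroid plexus score, at 0.19 in home cage, 0.19 in 14-0-0 and 0.36 in 14-14-0, against -0.35 in sedentary. The part of either marker list in the receptor, ligand, adaptor and target calls of these groups was not tested.

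Of the Smad partners, adaptors and corepressors, 16 of 19 were tested and 1 was called in each of 5 groups. Dab2, an endocytic adaptor, was higher in home cage by 0.48 (p = 0.0375), in 14-0-0 by 0.80 (limma, p = 0.00425) and in 14-14-0 by 0.84 (p = 0.00773), the 3 groups of highest choroid plexus and meningeal scores. Ranbp3, which takes SMAD2 and SMAD3 out of the nucleus, was lower in 14-7-0 (difference -0.16, p = 0.0442). Lemd3, an inner nuclear membrane protein that binds SMAD2 and SMAD3, was higher in 14-7-2 by 0.17 (p = 0.0455). Of 18 regulators of Smad turnover and phosphorylation, all tested, the single gene called was Smurf1, a ubiquitin ligase for SMAD1 and SMAD5. It was 9.41 ± 0.670 FPKM in sedentary, 8.54 ± 0.630 FPKM in home cage (difference -0.14, limma, p = 0.0167) and 8.56 ± 0.850 FPKM in 14-0-0 (-0.14, p = 0.0367; SD, n = 10 each).

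Target genes of both sides of the pathway were also called. Of 10 tested SMAD2 and SMAD3 targets, 2 were called in home cage, where 2.3% of all genes were, and 1 each in 14-0-0 (9.15%) and 14-14-0 (4.95%). On the BMP side 2 of 8 were called in 14-0-0, and 1 of 8 each in 14-7-2 (4.39%) and 14-14-0. Tgfbi, an extracellular matrix protein, was higher in home cage by 0.55 (limma, p = 0.0423), in 14-0-0 by 0.71 (p = 0.0165) and in 14-14-0 by 0.96 (p = 0.00717). Cdkn1a, an inhibitor of the cell cycle, was lower in home cage (difference -0.42, p = 0.0129). Of 8 tested SMAD1, SMAD5 and SMAD9 targets, Bambi, a decoy receptor, was higher in 14-0-0 by 0.42 (limma, p = 0.00276) and in 14-7-2 by 0.38 (p = 0.0227). Hes1, a transcriptional repressor, was lower in 14-0-0 (difference -0.33, p = 0.024) and higher in 14-14-0 by 0.30 (p = 0.0407). The median difference of the 8 BMP-side targets was -0.057 in home cage, -0.056 in 14-0-0 and -0.060 in 14-7-0. It was -0.043 in 14-7-2, -0.047 in 0-0-2 and 0.060 in 14-14-0. For the 10 tested SMAD2 and SMAD3 targets the median was 0.043 in home cage, 0.019 in 14-0-0 and -0.048 in 14-7-0. In 14-7-2, where none of these targets was called, it was -0.13. In 0-0-2 it was 0.020 and in 14-14-0 it was 0.026. Over all genes tested the medians ran from -0.010 in 14-14-0 to 0.0083 in 14-0-0.

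Members of the family were finally compared with each other over libraries, after the mean of each group and cohort was taken off, so that group differences play no part. There were 108 relations, 28 between members and 80 with the marker scores of 10 cell types or tissues, and p-values are from 100000 permutations. A marker score is the mean over a list of log2(FPKM + 0.1) less each gene's own mean. Values of a library share its depth, its dissection and its RNA, so that these are relations between measurements of a library.

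Smad3 and its partner Smad4 rose and fell together (r = 0.56, rho = 0.57, n = 70, permutation test, adjusted p = 0.00036 for r and 0.00054 for rho), and without the 2 libraries farthest from the median of Smad4 r was 0.41. With both atypical libraries left out it was also 0.41. Smad2 went with Smad5 (r = 0.43, rho = 0.34, permutation test, adjusted p = 0.00261 and 0.0228), although r fell to 0.22 without the 2 libraries farthest in Smad5. Smad9 went with Smad5 (r = 0.38, 0.38 without the 2 farthest) and with Smad4 (r = 0.37, 0.32 without them). The pair of activin-side members was not positively related, with r = -0.21 between Smad2 and Smad3 (adjusted p = 0.161, permutation test).

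**Figure D4:**
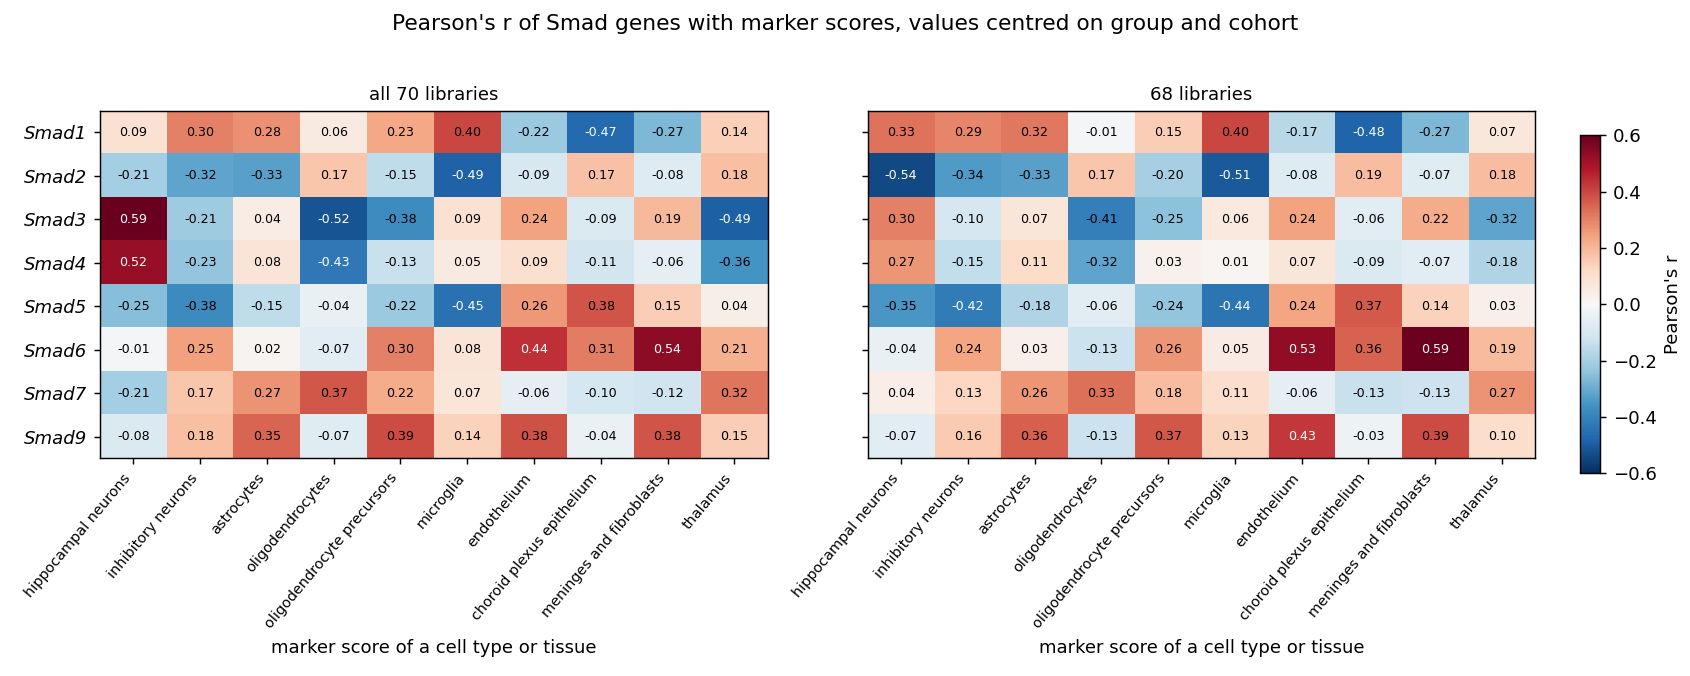
Pearson's r of each Smad gene (y axis) with the marker score of 10 cell types or tissues (x axis), over all 70 libraries on the left and 68 on the right, without sedentary replicate 6 and 14-7-0 replicate 4, after centring on group and cohort. Smad6 goes with meninges and endothelium in both (0.54 and 0.44, then 0.59 and 0.53), whereas the r of Smad3 with hippocampal neurons falls from 0.59 to 0.30.

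The map of correlations with marker scores separates members that share a signalling side. Smad6 enters it with values of 0.0531 to 1.18 FPKM, and its mean was below the minimum set for the group tests. Smad6 followed the markers of meninges and fibroblasts (r = 0.54, rho = 0.55, permutation test, adjusted p = 0.00036 and 0.00054) and of endothelium (r = 0.44, rho = 0.45, adjusted p = 0.00184 and 0.00216), and without the 2 farthest libraries r was 0.52 and 0.42. Smad1 went against the choroid plexus markers (r = -0.47, rho = -0.44, adjusted p = 0.00108 and 0.00264, permutation test), with r = -0.48 without the 2 farthest. Smad5, its close relative, went with them (r = 0.38, rho = 0.46). Smad2 and Smad5 both went against the microglial markers (r = -0.49 and -0.45, adjusted p = 0.0009 and 0.00132, permutation test), while Smad1 went with them (r = 0.40).

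Smad3 fell with rising oligodendrocyte markers (r = -0.52, rho = -0.33, adjusted p = 0.000432 and 0.0229, permutation test), with r = -0.41 without the 2 farthest libraries. Its relation to the markers of hippocampal neurons was weaker without the atypical libraries, with r = 0.59 over 70 and 0.30 over 68 of them (adjusted p = 0.00036 and 0.0405, permutation test), and rho over 70 was 0.22 (adjusted p = 0.141). Smad7 went the other way from Smad3 and rose with the oligodendrocyte markers over all 70 libraries (r = 0.37, rho = 0.45). Sedentary replicate 6, kept in these values, had the highest Smad7 of 70 and an oligodendrocyte score of 1.31 before centring. That score was at most 0.79 in the libraries other than it and 14-7-0 replicate 4. Over the 68 libraries Smad2 went against the markers of hippocampal neurons (r = -0.54), where r was -0.21 over all 70.

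The genes whose pattern over the 70 libraries was most like that of each member were found by Spearman's rho of FPKM, as a description without a test. For Smad3 they were Ptk2, the focal adhesion kinase (rho = 0.83), Igfbp5 (0.79) and Ipcef1 (0.75). For Smad4 they were Zfp609 (0.76), Kif26b (0.75) and Elmsan1 (0.75), and for Smad2 Scaper (0.72), Nalcn, a sodium leak channel (0.68), and Hspa4l (0.66). Among the BMP-side members, Smad5 was most like Rbl2 (0.79), Tcf12 (0.76) and Abca1 (0.74), Smad9 like St8sia4 (0.68), Prkacb (0.67) and Zfp646 (0.67), and Smad1 like Gfra2 (0.53), Ncoa5 (0.49) and Nrg2 (0.48). Smad6 was most like Serpinh1, the collagen chaperone (0.73), Ccnd3 (0.72) and Tinagl1 (0.69). Smad7 was most like Shb (0.62), Irf2bp2 (0.61) and Sap30l (0.61). The closest match was thus weakest for Smad1 and strongest for Smad3, the latter being the member with the widest spread among those tested.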

How the data were processed

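RNA of the dorsal hippocampus was measured in 70 libraries, 10 for each of 7 groups, as labelled. The authors prepared poly-A libraries, aligned 50 bp single reads with ELAND v2e and Bowtie, kept reads placed uniquely with at most 2 mismatches, and deposited FPKM per gene from the Tuxedo programs. The submitters' processing notes name mm10 and Cuffnorm. The gene annotation is not given in the sources used here.

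Tests used log2(FPKM + 0.1). The 12994 genes whose mean over all libraries reached 1 FPKM were tested in limma 3.58.1 (R 4.3.3; two-sided moderated test with a trend, no covariates unless named), on the libraries of each comparison. A call means an unadjusted p under 0.05, as in the study, and Benjamini-Hochberg adjustment covered all genes tested. A fold change on this scale understates the change of low genes. Correlations used Python 3.11.15, scipy 1.17.1 and numpy 2.4.6, and figures matplotlib 3.10.9. The limma step and the depth estimate were tested on simulated data.

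The study lists read totals under library names that were not matched to samples here, and FPKM are not counts, so counting intervals were not computed. Relative depth was read from the steps of genes with a mean under 0.1 FPKM. No libraries were identical. Positions and promoter windows are from RefSeq (GRCm38.p6). Reads that match several places were dropped by the authors, and strand was not stated to be used.

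The 8 members, the 6 pathway lists and the 10 marker lists were chosen with earlier results of these data known. Genes named are the members, the 3 genes most like each, and in each pathway list and comparison with sedentary the called gene of smallest p, together with the other calls of those genes against sedentary. Alternatives were another pseudocount, other minimum levels, median-ratio scaling, a joint fit of all groups, the cohort, replicate number or choroid plexus score as covariates, Cyber-T rewritten from its formula, single cohorts, a limit of 0.01, and leaving out libraries.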

Additional observations from a re-analysis of the deposited data

Results flagged for a closer look

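In each gene and group of 10 libraries, the library furthest from the rest was looked at with Dixon's test, in 56 cases. In 7 a library stood apart, where chance gives about 1 in 20. Smad1 in 14-7-0 replicate 4 was 10.4 FPKM, next to 8.19 FPKM, and Smad6 in the same shallow library was 1.05 FPKM, next to 0.409 FPKM. Smad3 in home cage replicate 7 was 10.7 FPKM, next to 20.1 FPKM. In 14-0-0 replicate 5, both Smad4 (13.2 FPKM) and Smad5 (5.97 FPKM) were below the rest of the group. Smad4 in 14-7-0 replicate 9 was 13.3 FPKM and Smad5 in sedentary replicate 4 was 5.74 FPKM, the lowest of their groups.

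Differences between groups were compared across the harvest cohorts by an interaction term in limma. Of 77 tests of members, 4 had an unadjusted p under 0.05, where 2.67% of such tests over all genes did, and none passed adjustment. Smad2 in 14-0-0 against sedentary was 0.21 in cohort 1 and -0.17 in cohort 2, a difference of -0.38 (p = 0.0178, adjusted p = 0.956). Smad7 accounted for the other 3. Against 14-7-0, Smad7 in 14-7-2 was 0.063 in cohort 1 and -0.30 in cohort 2, a difference of -0.37 (p = 0.00922, adjusted p = 0.963). Smad7 in 14-14-0 against 14-7-0 was 0.22 and -0.086, a difference of -0.31 (p = 0.0188, adjusted p = 0.882). Smad7 in 14-7-2 against sedentary was 0.14 and -0.20, a difference of -0.34 (p = 0.0281, adjusted p = 0.953). All libraries were kept, and cohort 2 of sedentary holds replicate 6, where Smad7 was the highest of 70. The 3 tests of Smad7 share the libraries of 14-7-0 or 14-7-2, so they are not independent. The cause of these differences was not tested.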

How the results depend on the processing

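The count of members called between harvest cohorts was 1, Smad7, under all 9 alternatives run for it. The Smad differences called with all libraries kept their direction under every alternative run for them. The 1 call in the 6 comparisons with sedentary became 0 with the choroid plexus score in the model, with Cyber-T, in cohort 2 alone and at a limit of 0.01, and 2 with the cohort as a covariate. It stayed at 1 in cohort 1 alone and without sedentary replicate 6, but as Smad7 in 14-14-0 in place of Smad1 in 14-0-0. The 2 calls in the direct comparisons became 1 with the choroid plexus score and at the limit of 0.01, and 3 without 14-7-0 replicate 4. In cohort 2 alone they stayed at 2, with Smad7 in 14-7-2 against 14-7-0 (-0.30, against 0.063 in cohort 1 alone) in place of Smad1 in 14-7-0 against 14-0-0. The 2 calls of the test over 7 groups became 1 with the choroid plexus score, in cohort 1 alone, in cohort 2 alone and without both atypical libraries (chosen after seeing the data), and 0 at the limit of 0.01. The Smad1 difference in 14-0-0 ran from -0.18 to -0.092 over its limma alternatives (p from 0.0243 to 0.305), and Smad7 in 14-7-0 against 14-0-0 from 0.20 to 0.29 (p from 0.000305 to 0.0211). The labels do not state whether the replicate numbers of the titles pair the libraries, and the main tests did not pair them. Of 60 same-numbered pairs with sedentary, 27 had a correlation over 0.1 (median 0.074). In 13 pairs it was higher than with any other number of that group. With the replicate block 1, 2 and 2 members were called in these 3 sets. Smad6 was below the minimum of 1 FPKM. With no minimum level it was called in none of its comparisons, at p of 0.232 to 0.985 against sedentary.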
